A study of Mus musculus with 6 samples.

Results

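The identity genes of upper-layer callosal projection neurons were followed in RNA from mouse corpus callosum, 9 genes in all: Cux1, Cux2, Pou3f1, Pou3f2, Pou3f3, Rorb, Lmo4, Inhba and Lhx2. They were taken by symbol from the 24411 genes of the deposited tables, and all 9 were found, with 20 transcripts among 35034. The corpus callosum of B6 mice was cut out of cryostat sections on postnatal day 4, and its polyadenylated RNA was sequenced without strand information. There were 3 libraries from a conditional knockout of Mettl14 (Mettl14 cKO) and 3 from WT mice. Mettl14 encodes a subunit of the enzyme that writes N6-methyladenosine on RNA. The sources used here name no Cre driver for the knockout, and they do not say whether each library came from its own animal. The p-values therefore rest on the scatter of these libraries, which may be technical. Series labels place the question in the contribution of this RNA mark to developing axons.

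Neurons of cortical layers 2/3 send most of the axons that cross in the corpus callosum. Their identity is set by a group of DNA-binding proteins: the cut-homeodomain factors CUX1 and CUX2, the POU-homeodomain factors encoded by Pou3f1 (OCT6), Pou3f2 (BRN2) and Pou3f3 (BRN1), the LIM-homeodomain factor LHX2 and the nuclear receptor RORB, which is best known from layer 4. LMO4 is a LIM-only adaptor that binds the cofactor LDB1, and Inhba encodes the subunit of activin A, a secreted ligand. Several of these genes are not private to neurons: Lhx2, Pou3f2 and Pou3f3 are also active in cortical progenitors, and Cux1 and Lmo4 in many cell types.

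The libraries were shallow, from 670462 to 1268430 expected counts. Mettl14 itself had 2, 7 and 2 counts in cKO and 11, 8 and 5 in WT (exact two-sided permutation test of CPM, p = 0.3, where 3 against 3 libraries cannot give less than 0.1), so a loss of the targeted transcript was not detectable at this depth. Xist had 2323 to 4618 counts in cKO libraries and 0 in WT, and the Y-linked Eif2s3y had 0 in cKO and 51 to 80 in WT, so genotype and sex-linked RNA cannot be told apart. Both replicate 2 libraries were deeper, with mean fragments of 291.7 bases in cKO and 303.3 bases in WT against 331.4 to 349.5 bases in the others. Few-exon genes were often near 0. Of 83 genes with 1 exon and a mean of at least 20 counts, 25.3%, 6.02% and 45.8% stood at 0 or 1 count in cKO replicates 1 to 3, and 47%, 8.43% and 37.3% in WT replicates 1 to 3. Among 4753 genes with more than 3 exons the share was 0.673% to 4.21%.

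Levels are given as CPM, the count scaled to library size by TMM, and as TPM, which also scales to transcript length, where genes are set against each other. In the test across all 5918 genes that passed the filter on low counts (edgeR quasi-likelihood, Benjamini-Hochberg adjusted p below 0.05), 0.912% of genes were called, 0.49% as higher and 0.422% as lower in cKO. Of the 9 genes 7 passed the filter. Pou3f1 was called as higher, and 0 of the 7 were called as lower (0 also by DESeq2, by limma and at an unadjusted edgeR p below 0.05). The cKO libraries all lay above the WT libraries in CPM for 5 of the 7, Cux2, Pou3f1, Pou3f2, Pou3f3 and Lhx2, as they did for 10.4% of all tested genes, and all below for 0 of the 7, against 9.45% of all tested genes. Pou3f1 and Pou3f2 passed the filter only through the cKO libraries, where they are high, and thus had to differ, so these counts over the 7 genes are a description and carry no support.

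**Figure D1:**
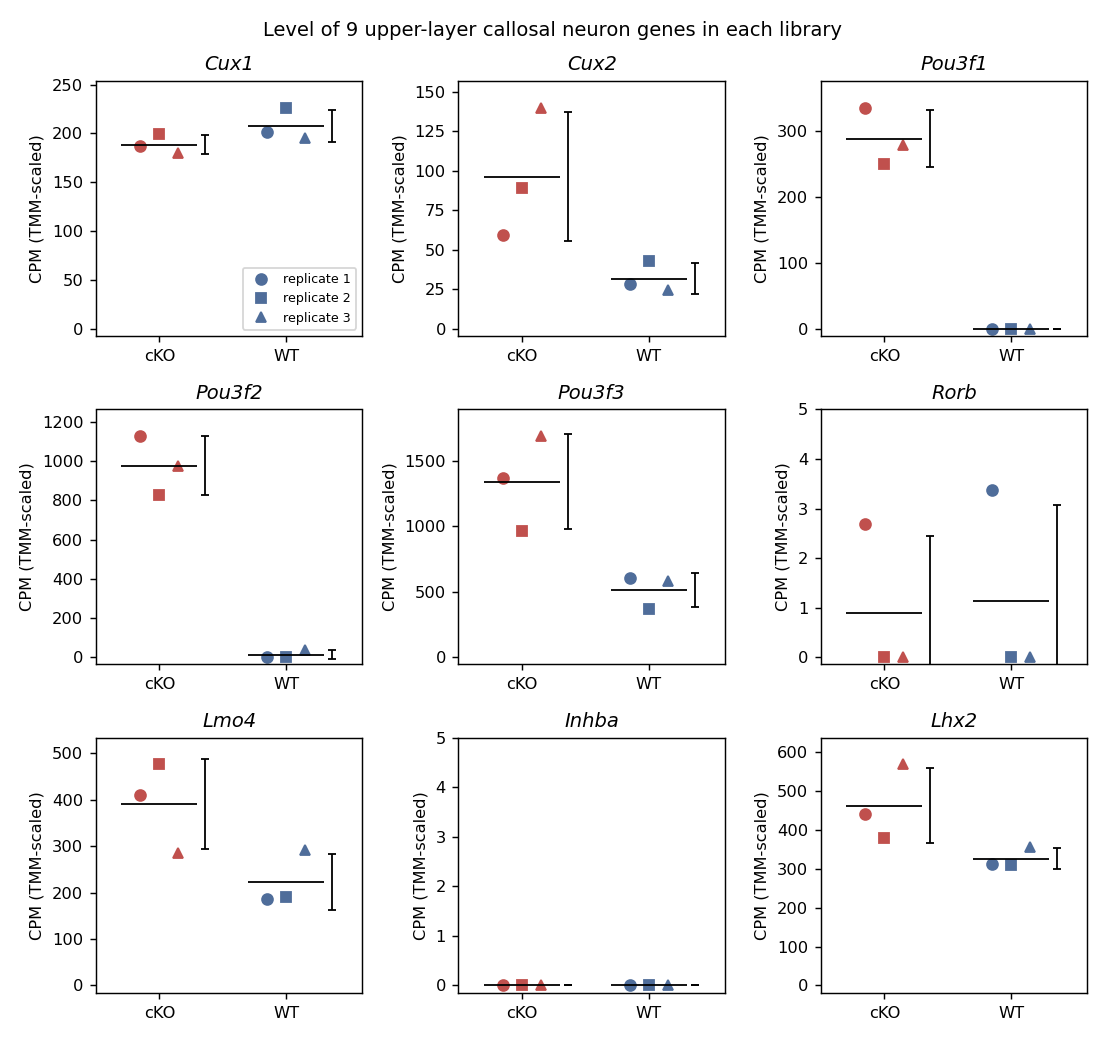
Level of each of the 9 genes in CPM (y axis, linear, each panel with its own scale) in cKO and WT libraries, with a point per library, a line at the group mean and a bar of 1 SD. Pou3f1 lies at 249 to 335 CPM in cKO and at 0 in all WT libraries, Cux1 overlaps between the groups, and Inhba is at 0 throughout.

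The POU factors Pou3f1 and Pou3f2 differed most between the genotypes among the 7 tested genes, while Pou3f3 differed less than Cux2 did on the log2 scale. All 3 are encoded by a single exon: Pou3f1 at chr4:124656807-124660655, plus strand, Pou3f2 at chr4:22482780-22488366, minus strand, and Pou3f3 at chr1:42695768-42703176, plus strand (GRCm38). Because reads of close relatives can be assigned to the wrong gene, the most similar stretch of their coding sequences was compared. The 120 bases below lie in the coding exon at chr4:124658511-124658630 in Pou3f1, chr4:22487151-22487270 in Pou3f2 and chr1:42698148-42698267 in Pou3f3. Capitals mark positions at which the genes differ.
Pou3f1: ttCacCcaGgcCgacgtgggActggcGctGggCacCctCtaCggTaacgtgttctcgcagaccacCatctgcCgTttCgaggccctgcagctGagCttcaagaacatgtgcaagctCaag
Pou3f2: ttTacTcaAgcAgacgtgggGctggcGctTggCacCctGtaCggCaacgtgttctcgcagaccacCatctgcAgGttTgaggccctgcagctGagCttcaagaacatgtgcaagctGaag
Pou3f3: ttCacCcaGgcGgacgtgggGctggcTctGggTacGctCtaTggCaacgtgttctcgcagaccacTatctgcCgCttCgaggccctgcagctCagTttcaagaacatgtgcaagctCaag
Of the 120 positions 101 hold the same base in all 3 genes. Over the whole GENCODE transcripts the longest identical run was 38 bases between Pou3f1 and Pou3f2, 29 between Pou3f1 and Pou3f3 and 23 between Pou3f2 and Pou3f3, and none of their 50-base words was shared. The expected counts of each were whole numbers in all 6 libraries, within 0.005, as they are when no fragment is divided between genes.

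Pou3f1, a POU factor of projection neurons and of myelinating Schwann cells, was read in cKO only. It had 249, 249 and 197 counts in cKO replicates 1 to 3 and 0 in each WT library. In cKO this came to 335, 249 and 279 CPM. Against a floor of 3 counts over the WT group the gene was at least 283-fold higher in cKO (edgeR adjusted p = 0.0206, higher in 3 of 3 cKO libraries). This was the 17th smallest p of all tested genes. Pou3f1 passed the filter only through the cKO libraries, so this p and its rank are a description and carry no support. A count of 0 allows up to 3 counts, or 1.3 to 1.73 TPM of Pou3f1, in a WT library. The zero in WT replicate 2 fell in a library where 8.43% of the 1-exon genes were at 0 or 1, while in WT replicates 1 and 3 the share was 47% and 37.3%. The part of this loss in the result was not tested. All 6 tables list the same transcripts with the same lengths, and whether reads were filtered alike in every library is not given in the sources used here. The call was lost when any single library other than WT replicate 2 was left out, with edgeR adjusted p = 0.155, 0.0799 and 0.0638 without cKO replicate 1, 2 or 3 and 0.119 and 0.0912 without WT replicate 1 or 3. It was also lost without both replicate 2 libraries (edgeR adjusted p = 0.142). An antisense gene, Gm2164, overlaps its exon, and without strand reads of the pair cannot be told apart.

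Pou3f2, which together with Pou3f3 drives the production and migration of upper-layer neurons, had 840, 827 and 690 counts in cKO replicates 1 to 3. In WT it had 0, 0 and 33. The WT counts came from replicate 3 alone, and no cKO library came near them, with 828 to 1129 CPM in cKO and 38.4 CPM in WT replicate 3. Its log2 fold change of 6.27, or 77.4-fold, had a wide 95% interval of 2.16 to 10.39 on the log2 scale. It did not pass the threshold (edgeR adjusted p = 0.225). In a test of log2(TPM + 1) with limma it did (adjusted p = 0.0215). Without WT replicate 3 the WT count is 0, and Pou3f2 was at least 685-fold higher in cKO against a floor of 3 counts over the remaining WT libraries (edgeR adjusted p = 0.0504). The size of this bound follows from leaving out the only WT library with counts. Over all alternatives the adjusted p ran from 0.0215, with limma on log2(TPM + 1), to 0.501, with edgeR. Pou3f2 also passed the filter only through the cKO libraries, so its p-values are a description and carry no support.

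Pou3f3, the remaining BRN factor, was abundant in every library. It had 1020, 960 and 1193 counts in cKO and 534, 456 and 496 in WT, that is 1371, 961 and 1688 CPM in cKO and 600, 366 and 577 CPM in WT. The lowest cKO library lay above the highest WT library. The mean was 1340 ± 364 CPM in cKO and 514 ± 129 CPM in WT (SD, n = 3 each), a 2.6-fold difference (log2 1.38, 95% interval 0.61 to 2.15) that did not pass over all genes (edgeR adjusted p = 0.169). DESeq2, which called 429 genes in all, called it (adjusted p = 0.00105), and no other alternative setting did. With 1 exon like the others, Pou3f3 was at 0 in no library.

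The make-up of the POU group in TPM differed between the cKO and WT libraries, through the 0 or few WT counts of Pou3f1 and Pou3f2. Pou3f1, Pou3f2 and Pou3f3 summed to 970, 700.2 and 1394 TPM in cKO replicates 1 to 3 and 302, 194 and 276 TPM in WT replicates 1 to 3. Pou3f3 made up 61.5%, 60.1% and 69.8% of that sum in cKO. In WT it made up 100%, 100% and 97%. Pou3f2 supplied 18.5% to 24% in cKO and at most 2.97% in WT, and Pou3f1 supplied 11.8% to 15.9% in cKO and 0% in WT. Of the 1-exon genes, 47%, 8.43% and 37.3% stood at 0 or 1 count in WT replicates 1 to 3. In cKO replicates 1 to 3 these were 25.3%, 6.02% and 45.8%. The TPM of Pou3f3 also rests on a transcript of 3064 bases, against 7409 in GENCODE. The part of either in these shares was not tested.

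**Figure D2:**
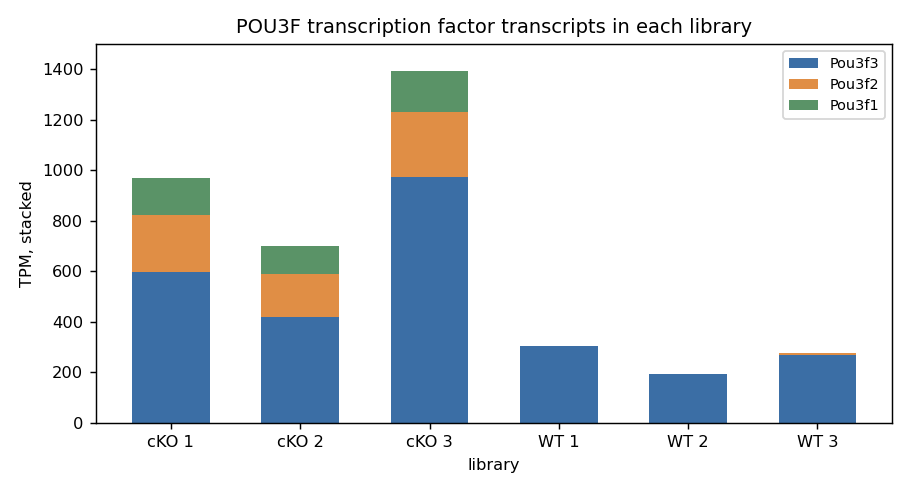
TPM of Pou3f3, Pou3f2 and Pou3f1 (y axis, linear, stacked) in each library, with the cKO libraries on the left. The WT bars consist almost wholly of Pou3f3, at 194 to 302 TPM, and the cKO bars hold all 3 genes.

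Among the cut-homeodomain genes, nearly all of the Cux1 signal came from transcripts that do not code for the homeodomain protein. The Cux1 locus (chr5:136248135-136567490, minus strand, GRCm38) also encodes CASP, a membrane protein of the Golgi that shares its N-terminal coding exons with CUX1 and then splices to other exons downstream. The tables list 7 Cux1 transcripts, 4 short ones of 3057 to 3352 bases that end in the CASP exons and 3 long ones of 12912 to 13507 bases that end in the CUX1 exons. The forms part after exon 14 (chr5:136314307-136314403). The short form goes on to its exon 15 at chr5:136257913-136258040 and the long form to its own at chr5:136312643-136313008. The spliced sequences of the coding strand on each side of this point are shown, with the 60 shared bases in lower case and the first 60 bases of each form's own exon in capitals.
Cux1 short form: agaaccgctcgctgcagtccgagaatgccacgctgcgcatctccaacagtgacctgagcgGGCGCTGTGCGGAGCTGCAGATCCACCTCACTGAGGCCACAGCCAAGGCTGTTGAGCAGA
Cux1 long form: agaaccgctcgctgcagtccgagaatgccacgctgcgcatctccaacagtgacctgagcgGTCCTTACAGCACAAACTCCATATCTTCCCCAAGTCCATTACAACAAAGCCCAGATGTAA
The short transcripts took 134.47, 193.4 and 118.67 expected counts in cKO and 176.77, 277.63 and 165.7 in WT. The long ones took 4.53, 5.59 and 8.33 in cKO and 2.23, 4.37 and 2.31 in WT. The long share was thus 3.26%, 2.81% and 6.56% of Cux1 counts in cKO and 1.25%, 1.55% and 1.37% in WT. Every cKO share lay above every WT share, but on so few counts that the exact 95% binomial intervals overlapped (2.76% to 12% in cKO replicate 3, 0.14% to 3.98% in WT replicate 1, from long counts rounded to whole numbers). These intervals cover counting error only, and the division of counts between transcripts is an estimate by RSEM. In TPM the long form stood at 0.51 to 1.46 in cKO and 0.26 to 0.4 in WT. The short form stood at 78.8 to 96.5 TPM in cKO and 89.6 to 118 TPM in WT.

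**Figure D3:**
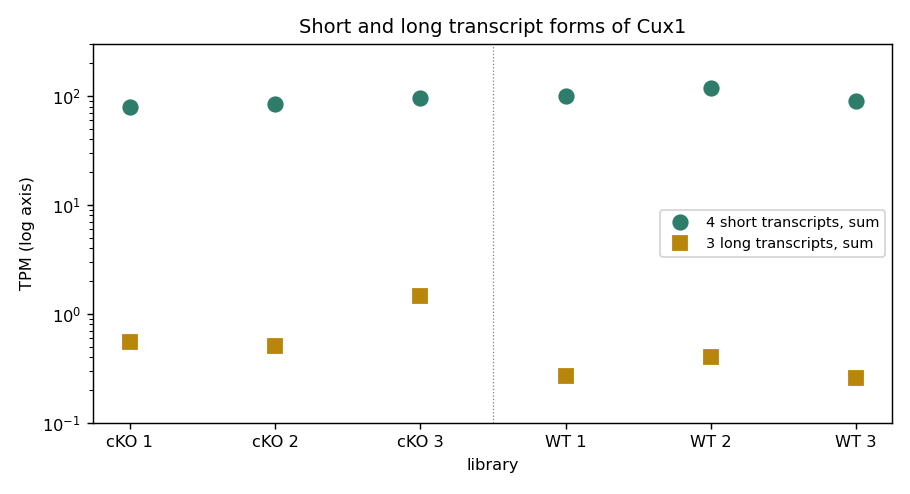
Summed TPM (y axis, log scale) of the short and the long Cux1 transcripts in each library, with cKO on the left. The short form lies between 78.8 and 118 TPM in all 6 libraries and the long form never above 1.46 TPM.

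Taken as a gene, Cux1 did not separate the groups. It had 139, 199 and 127 counts in cKO and 179, 282 and 168 in WT, with a mean of 189 ± 9.88 CPM in cKO and 208 ± 16.5 CPM in WT (SD, n = 3 each). Its log2 fold change of −0.14 (95% interval −1.01 to 0.73, edgeR adjusted p = 0.944) describes the short form almost alone. An antisense gene, Gm16599, overlaps exons of the locus and was not separated from it.

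Cux2, the paralog that is more restricted to upper-layer neurons and shapes their dendrites and synapses (chr5:121856366-122050102, minus strand, 23 exons), was much scarcer. It had 44, 89 and 99 counts in cKO replicates 1 to 3 and 25, 53 and 21 in WT. As CPM these were 59.2, 89.1 and 140 in cKO and 28.1, 42.6 and 24.4 in WT, so that the lowest cKO library stood above the highest WT library. Cux2 averaged 96.1 ± 40.9 CPM in cKO and 31.7 ± 9.59 CPM in WT (SD, n = 3 each), 3.02-fold higher (log2 1.59, 95% interval 0.31 to 2.87). It did not pass over all genes (edgeR adjusted p = 0.286) but did with DESeq2 (adjusted p = 0.0367), and in no other alternative setting. Unlike the POU genes it has many exons.

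The LIM genes were abundant in both genotypes. Lmo4 (chr3:144188530-144205220, minus strand) had 305, 475 and 202 counts in cKO and 165, 238 and 250 in WT. The groups overlapped in CPM, where cKO replicate 3 at 286 lay below WT replicate 3 at 291, but not in TPM, with 336 to 442 in cKO and 192 to 278.5 in WT. The log2 fold change was 0.81 (95% interval −0.11 to 1.73, edgeR adjusted p = 0.457). Its shortest transcript, of 1417 bases, took 37.3%, 31.1% and 6.2% of the Lmo4 counts in cKO replicates 1 to 3 and 12.3%, 19.1% and 10.8% in WT, while the 1704-base transcript took 59.2% to 93.8% in cKO and 78.9% to 87.7% in WT. The shares of cKO replicate 3 thus stood apart from those of the other cKO libraries.

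Lhx2 (chr2:38339281-38369733, plus strand), a LIM-homeodomain factor of cortical progenitors that persists in upper-layer neurons, had 328, 377 and 401 counts in cKO and 277, 384 and 306 in WT. In CPM the cKO libraries at 377 to 567 lay above the WT libraries at 308 to 356. In TPM the groups overlapped, with 230 to 458 in cKO and 218 to 230 in WT. The log2 fold change of 0.51 (95% interval −0.24 to 1.25, edgeR adjusted p = 0.584) did not pass, and the interval includes no change.

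Rorb and Inhba lay below the filter. Rorb (chr19:18930605-19111196, minus strand) had 2, 0 and 0 counts in cKO and 3, 0 and 0 in WT. These counts are at or under the floor of 3 per library, or 0.405 to 0.743 TPM in cKO and 0.392 to 0.518 TPM in WT. Inhba (chr13:16011851-16031621, plus strand) had 0 counts in all 6 libraries, which allows up to 2.95 to 5.63 TPM in cKO and 2.88 to 3.88 TPM in WT. Its transcript in the tables is 1529 bases long, whereas the longest GENCODE transcript of the gene has 6390 bases. The longest transcripts in the tables were also shorter than in GENCODE for Pou3f3, with 3064 against 7409 bases, Cux2, with 5113 against 8784, Pou3f1, with 3010 against 3849, and Lhx2, with 2295 against 2840. Fragments outside the listed transcripts were not counted, and the part of this in the levels was not tested.

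**Figure D4:**
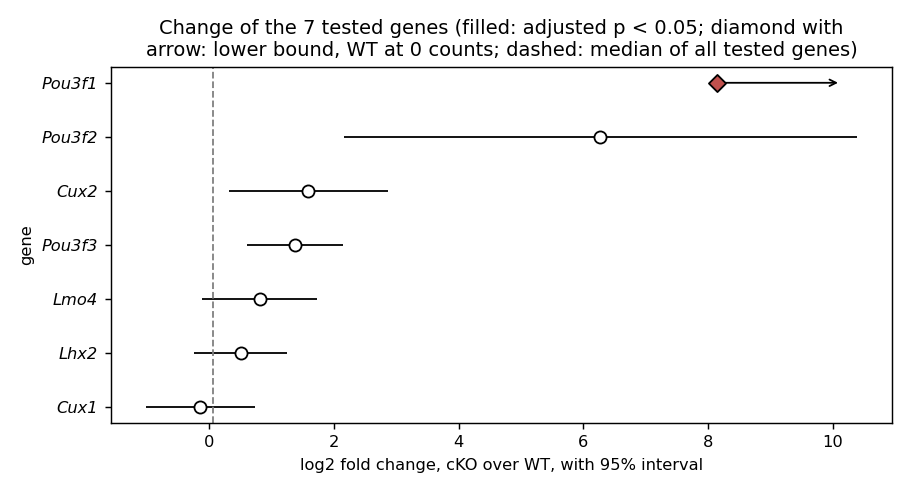
Log2 fold change of cKO over WT (x axis) with its 95% interval for the 7 tested genes, and the median of all tested genes, 0.069, as a dashed line. Pou3f1 is drawn at its lower bound of 283-fold because WT had 0 counts, and it is the one filled symbol, the gene past the threshold.

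Ordered by length-scaled level, Pou3f3 ranked first in cKO at 663 ± 282 TPM, followed by Lmo4 (390 ± 53.3), Lhx2 (318 ± 122), Pou3f2 (217 ± 45.4), Pou3f1 (141 ± 27), Cux1 (87.4 ± 9.56) and Cux2 (27.7 ± 16.3 TPM, SD, n = 3). Among the first 4 each gene's libraries overlapped with those of its neighbour in the order, and from Pou3f2 to Cux2 they did not. In WT the order was Pou3f3 (255 ± 55.3), Lmo4 (227 ± 45.6), Lhx2 (225 ± 6.19), Cux1 (103 ± 14.7), Cux2 (9.17 ± 3.37) and Pou3f2 (2.73 ± 4.72 TPM, SD, n = 3). There the first 3 overlapped, and so did Cux2 and Pou3f2. The most abundant members were thus the same 3 genes in either genotype, and the order changed lower down, where Pou3f1 and Pou3f2 stood above Cux1 in cKO and below Cux2 in WT.

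Across the 6 libraries, the profile of Pou3f1 was most like those of Neurod2, a factor of cortical excitatory neurons, and Llph (Pearson r = 1 and 0.9999 of log2(CPM + 1) among 4956 genes). Neurod2 had 1470 to 1996 counts and Llph 55 to 81 in cKO, and both had 0 in WT. Pou3f2 was most like Bhlhe22, a factor of cortical projection neurons (0.9993), which had 771, 766 and 850 counts in cKO and 0, 0 and 40 in WT. The doublecortin gene Dcx, of young migrating neurons, was nearest to Pou3f3 (0.9997). Cux2 was most like the neuronal splicing factor gene Srrm4 (0.9945), Lmo4 like Atp6ap1 (0.9864) and Lhx2 like Macf1 (0.9845). Cux1 was most like Hepacam (0.9806), a gene of glial adhesion. Hepacam had 8, 46 and 7 counts in cKO and 31, 355 and 32 in WT, the highest of each group in the deeper replicate 2. Cux1 spanned only 179.6 to 226.5 CPM and was also highest there in each group. With 6 libraries in 2 groups and so many genes, values close to 1 come easily, and these are descriptions.

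Other genes of upper-layer and callosal neurons did not move as one. The tables held 23 of them, of which 12 were tested, and edgeR called 0 (2 higher and 3 lower at an unadjusted p below 0.05, DESeq2 called 2 and 2, limma 0). Over all 5918 tested genes, 12.6% had an unadjusted edgeR p below 0.05 in either direction. DESeq2 called 250 of the 5918 as higher and 179 as lower. The counts for this list and those below are to be read beside these numbers. The median of this list was −0.11 on the log2 scale, beside 0.069 over all tested genes. Dkk3, a secreted glycoprotein, had 7, 6 and 10 counts in cKO and 19, 222 and 154 in WT (log2 −3.67, SE 0.92). Plxna4, a semaphorin receptor subunit, had 185, 748 and 62 counts in cKO and 13, 60 and 4 in WT (log2 3.99, SE 1.14).

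For partners and pathway genes of the 9 factors, 11 of 26 were tested and edgeR called Sox11 alone, as higher (4 higher and 1 lower at an unadjusted p below 0.05, the same numbers by DESeq2, and 1 higher by limma). Sox11, an HMG-box factor of young neurons and a partner of POU proteins, had 2851, 3000 and 3920 counts in cKO and 728, 777 and 631 in WT (log2 2.51, SE 0.27, edgeR adjusted p = 0.0177). Ldb1, the cofactor of LMO4 and LHX2, had 271, 282 and 205 counts in cKO and 78, 169 and 68 in WT (log2 1.63, SE 0.42, adjusted p = 0.2). Ssbp2, which stabilises LDB1, stood at log2 2.89 (SE 0.57, adjusted p = 0.115). Sox2, also on the list, went the other way, with 240, 247 and 202 counts in cKO and 573, 516 and 609 in WT. Its log2 fold change was −1.05 (SE 0.33, edgeR adjusted p = 0.266). The list's median was 0.8, with 7 log2 fold changes positive and 4 negative. Deep-layer and subplate genes had 7 tested members of 17 and a median of −0.93, with 0 called by edgeR (1 lower at an unadjusted p below 0.05, 0 with DESeq2 or limma). Of the 7, 2 had a positive and 5 a negative log2 fold change. Crym stood at −1.23 (SE 0.49). Tbr1 had 317, 372 and 11 counts in cKO and 77, 211 and 83 in WT (log2 1.21, SE 1.02). Fezf2, with 6, 8 and 5 counts in cKO and 1 in each WT library, was below the filter. So was Bcl11b, with 1, 2 and 1 counts in cKO and 0 in WT. Sox5 had 10, 251 and 7 counts in cKO and 26, 29 and 13 in WT, so that its log2 fold change of 2.02 (SE 1.25) rests on cKO replicate 2, and the other cKO libraries, at 13.5 and 9.9 CPM, lay below the WT libraries at 15.1 to 29.2 CPM.

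The summed levels of oligodendrocyte, astrocyte, progenitor and vessel markers were lower in every cKO library than in any WT library, and those of interneuron and microglia markers overlapped between the genotypes. Single markers did not all follow these sums. In tissue RNA fewer cells of a type and less RNA per cell cannot be told apart. Of 8 tested oligodendrocyte lineage markers edgeR called 7 as lower (DESeq2 called 7, limma 6 with voom and 7 on TPM), and the 14 listed genes summed to 6.99 to 624 TPM in cKO and 2820 to 4120 TPM in WT. Olig1 made up nearly all of the highest cKO sum, with 614.6, 404.2 and 0 TPM in cKO replicates 1 to 3. Myrf, Enpp6 and Mag were at 0 in every cKO library. Of 9 tested astrocyte markers edgeR called Aldoc as lower (6 lower at an unadjusted p below 0.05, DESeq2 called 4 and limma 1), and the 12 listed genes summed to 336 to 839 TPM in cKO and 1910 to 2520 TPM in WT. All 9 had a negative log2 fold change. Gfap, the most abundant of them, still stood at 682.1 TPM in cKO replicate 3, above the WT libraries at 536.5 to 662.7 TPM. In cKO replicates 1 and 2 it stood at 26.81 and 23.55 TPM. Among 7 tested radial glia and progenitor markers edgeR called Fabp7 and Ccna2 as lower (4 lower at an unadjusted p below 0.05, DESeq2 called 4, limma 1 with voom and 2 on TPM), and the 10 listed genes summed to 4230 to 4900 TPM in cKO and 11400 to 16400 TPM in WT. Most of this sum was Fabp7, at 3515 to 3935 TPM in cKO and 10150 to 14980 TPM in WT. Pan-neuronal genes summed to 6760 to 8980 TPM in cKO and 5490 to 6190 TPM in WT, so that every cKO sum lay above every WT sum. EdgeR called 0 of 9 (2 higher at an unadjusted p below 0.05, 2 with DESeq2, 0 with limma). Tubb3, the most abundant of them, stood at 3243 to 3672 TPM in cKO and 1883 to 2041 TPM in WT. Of the 9, 7 had a positive and 2 a negative log2 fold change. Interneuron markers summed to 76.3 to 792 TPM in cKO and 642 to 2280 TPM in WT, microglia markers to 80.1 to 684 TPM in cKO and 162 to 811 TPM in WT, and vessel markers to 25 to 41.2 TPM in cKO and 96.8 to 187 TPM in WT. In each of these 3 lists edgeR called 0 genes (0, 0 and 5 lower at an unadjusted p below 0.05, DESeq2 called 0, 0 and 2, limma 0). The tissue is labelled as callosal axon, and the WT libraries held glial and progenitor markers at these levels. The part of these differences in the levels of the 9 genes was not tested.

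**Figure D5:**
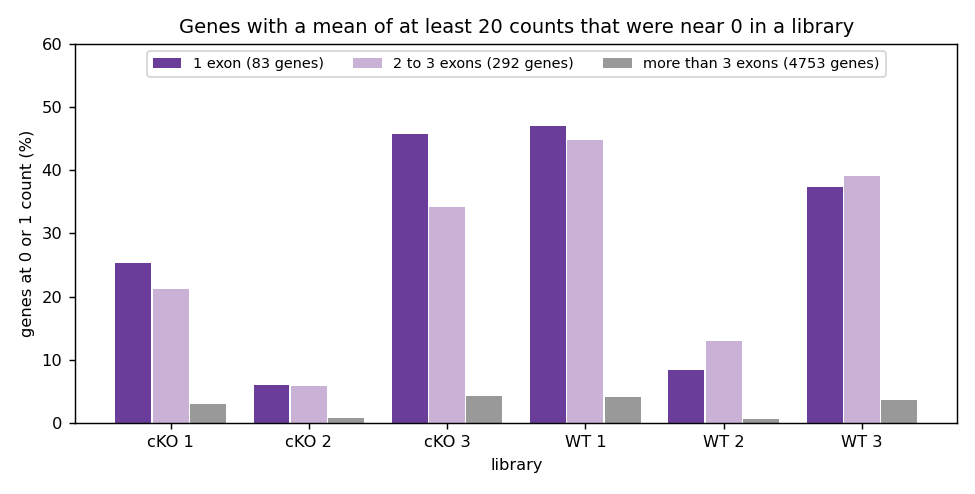
Share of genes at 0 or 1 count (y axis, percent) in each library, by number of exons, among genes with a mean of at least 20 counts over all libraries. The 1-exon class, which holds the POU genes, ranges from 6.02% in cKO replicate 2 to 47% in WT replicate 1, and genes with more than 3 exons stay at or below 4.21%.

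Exon number also went with the direction of change over all genes. Among the 61 tested genes with 1 exon the median log2 fold change was 0.83, and 32.8% had all cKO libraries above all WT libraries. For 226 genes with 2 to 3 exons the median was 0.81 and the share 28.3%. Among 5606 genes with more than 3 exons the median was 0.05 and the share 9.38%. In these 3 classes 4, 15 and 538 genes had all cKO libraries below all WT libraries. EdgeR called 3.28%, 5.75% and 0.25% of the classes as higher, and 0, 3 and 22 genes as lower. Pou3f1 was 1 of the 2 genes with 1 exon called as higher. Pou3f1, Pou3f2 and Pou3f3 belong to the class with 1 exon, and Cux2, Lmo4, Lhx2 and Cux1 to the class with more than 3 exons.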

How the data were processed

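RNA from corpus callosum of 3 Mettl14 cKO and 3 WT libraries was analysed, with groups and replicate numbers from the sample titles. The submitters' processing notes name STAR 2.7.10b, RSEM 1.3.3 and mm10; the annotation release was not given in the sources used. For each library the authors deposited a table of transcripts. Its expected counts, per the file headers, are estimated fragments. Its TPM values, deposited beside them, are scaled to length and library total. The deposited percent column is a transcript's share of its gene, and other deposited columns hold lengths in bases.

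Expected counts and TPM were summed per symbol, and counts were rounded. Libraries held 670462 to 1268430 expected counts, so that 1 count was worth 0.803 to 1.41 CPM. cKO was compared with WT by edgeR 4.0.16 in R 4.3.3 (TMM, filterByExpr with minimum count 10, quasi-likelihood, no covariate) over 5918 genes. The standard error (SE) is the log2 fold change over the root of F; it and the 95% interval restate the p-value. Tried in its place were DESeq2 1.42.0, limma 3.58.1 (voom, and log2(TPM + 1)), scaling by RLE or upper quartile, 2 other filters, a replicate block and left-out libraries. Positions, exon numbers (23880 of 24411 genes) and sequences came from GENCODE M21 on GRCm38, the assembly of mm10. Floors (3 counts) and counting intervals cover counting error only.

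The 9 genes, the other lists and the rule for named genes were chosen with earlier results of these data known. The rule takes the 9 genes, Mettl14, up to 3 genes of smallest p and all called genes per list, the most abundant marker per list, and the genes of most similar profile with a mean of at least 20 CPM; not all are reported here. Xist, Eif2s3y, Mag, Sox2, Tbr1, Fezf2 and Bcl11b were added after their values were seen.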

Additional observations from a re-analysis of the deposited data

How the results depend on the processing

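Over 16 alternative settings the 7 tested genes kept the direction of change of the main analysis in all 112 fits that gave a value. The number called as higher, 1 in the main analysis, was 3 with DESeq2 (Cux2, Pou3f1 and Pou3f3), 2 with limma on log2(TPM + 1) (Pou3f1 and Pou3f2), 0 with the replicate block and 0 without both replicate 2 libraries, and ranged from 0 to 1 when 1 library was left out; 0 genes of the 9 were called as lower in any setting. Pou3f1 had an edgeR adjusted p of 0.218 with the replicate block and 0.142 without both replicate 2 libraries, with 0 WT counts in each. Over all genes 54 were called in the main analysis, 22 without a filter, 22 with a filter of 1 CPM in 3 libraries, 429 with DESeq2, 1 with the replicate block (763 at an unadjusted p below 0.05), 0 without both replicate 2 libraries (740 at an unadjusted p below 0.05) and 0 to 42 with 1 library left out. The numbers were not taken as pairs, since deviations from the group means correlated with 0.053, 0.453 and 0.153 in pairs 1 to 3, and cKO replicate 1 correlated more with WT replicate 3 (0.092). With upper-quartile scaling the median log2 fold change over all genes was −0.22, against 0.069; relative to that median Pou3f3 stood at 1.34 and at 1.31 with TMM scaling, and Cux1 at −0.2 and −0.21. A fit on genes with more than 3 exons plus the 9 genes, added after seeing the data, called Pou3f1 alone among them. The counts of Pou3f1 were the same in that fit, so it does not test a loss of few-exon reads in this gene. Causes were not tested. Depth limits Rorb, Inhba and the long Cux1 form, all at few or 0 counts.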
